A study of Homo sapiens with 9 samples.

Results

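BAAT, NNMT, AADAC and AADAT are 4 genes for enzymes best known from the liver, and they were followed through RNA sequencing of the Huh7 line, which was established from a liver cell carcinoma of a patient. They are 4 of the 60448 rows of the deposited read count table and 4 of the 15019 genes with enough reads to be tested, and each was matched by its human Ensembl identifier. The members were selected on measured values of these same libraries: BAAT was lower in both OPA1 knock-down groups, while NNMT was lower in the group called N_28 and higher in the group called N_30. Their changes in these contrasts are therefore given as a description, without a test. The study lowered OPA1, which encodes a dynamin-like GTPase that fuses the inner mitochondrial membrane, by lentivirus. Its groups were control, N_28 and N_30, with 3 libraries each. The labels give the same treatment text to the control libraries, and do not say what the control vector was, what N_28 and N_30 stand for, or how long after infection RNA was taken. Separate cultures are not named for the libraries of a group, so the p-values given here compare with a spread that may be technical only.

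BAAT, bile acid-CoA:amino acid N-acyltransferase, is the enzyme that joins activated bile acids to glycine or taurine in the peroxisome, the last step before conjugated bile salts leave the hepatocyte. NNMT, nicotinamide N-methyltransferase, moves a methyl group from S-adenosylmethionine to nicotinamide, and so draws both on the methyl donor pool and on the nicotinamide that would otherwise be recycled into NAD. AADAC, arylacetamide deacetylase, is a membrane-bound esterase of the endoplasmic reticulum that hydrolyses drugs and has been tied to the turnover of stored triacylglycerol. AADAT, aminoadipate aminotransferase, is a mitochondrial transaminase of lysine and tryptophan breakdown that acts on 2-aminoadipate and on kynurenine. AADAC and AADAT share most letters of their symbols but neither a reaction nor a family.

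Depth was similar across libraries, with totals of 16476389 to 22863328 counts, and 3 counts equal at most 0.181 CPM (reads of a gene relative to the scaled size of its library), a floor that covers counting error only. OPA1 fell from 88.7 ± 5.28 CPM (SD, n = 3) in control to 55.6 ± 2.25 in N_28 and 64.5 ± 1.30 in N_30, which is 62.6% and 72.7% of control. Both falls passed edgeR's quasi-likelihood test (Benjamini-Hochberg adjusted p = 1.38e-05 and 0.00221). OPA1 was also higher in N_30 than in N_28 by 0.21 log2 units (edgeR adjusted p = 0.0265), so the strength of the knock-down differed between the groups compared below. The labelled cell type was checked against 16 hepatocyte markers, of which 10 stayed under 1 CPM in every library. APOB had no read, ALB (albumin) reached at most 0.602 CPM and HNF4A, a master regulator of hepatic genes, at most 0.181 CPM. The keratin KRT7 stood at 475 to 725 CPM and vimentin (VIM) at 1370 to 1544 CPM, and the collagen gene COL1A2 at 563 to 748 CPM. The markers thus go against the labelled hepatic cell type, and the identity of the line was not tested. In libraries made from bulk RNA, fewer cells of a kind and less RNA per cell cannot be told apart.

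On the human build GRCh38, BAAT spans chr9:101360417-101383519 on the minus strand (ENSG00000136881) and NNMT chr11:114257787-114313285 on the plus strand (ENSG00000166741). AADAC spans chr3:151814037-151828488 on the plus strand (ENSG00000114771) and AADAT chr4:170060222-170091699 on the minus strand (ENSG00000109576). AADAC lies inside an antisense gene, AADACL2-AS1, that had 0 to 2 counts per library, and an antisense gene across NNMT had no count. A pair of processed pseudogenes overlaps BAAT, with 0 to 2 counts for the one on the opposite strand and 0 to 9 for FYTTD1P1 on the same strand. A strand setting for the counting is not given here, so reads of such partners cannot be told apart from those of the gene, but the partners' own counts were small.

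The 250 bases before a start site are shown, for their base composition, for the 3 members listed in RefSeq's promoter table (GRCh38.p14). Where a member had several start sites, the window with the most CG dinucleotides was taken, or the first listed where windows tied, as for BAAT. The AADAT window is thus the richest in CG of those listed for that gene. RefSeq's start sites differ from the gene spans given above, and the AADAT window lies inside the span of that gene. Letters are 5′ to 3′ on the gene's strand, and capitals mark each CG dinucleotide, which reads the same on both strands. The windows are chr9:101383874-101384123 (minus) for BAAT, chr3:151813866-151814115 (plus) for AADAC and chr4:170089957-170090206 (minus) for AADAT.
window of BAAT: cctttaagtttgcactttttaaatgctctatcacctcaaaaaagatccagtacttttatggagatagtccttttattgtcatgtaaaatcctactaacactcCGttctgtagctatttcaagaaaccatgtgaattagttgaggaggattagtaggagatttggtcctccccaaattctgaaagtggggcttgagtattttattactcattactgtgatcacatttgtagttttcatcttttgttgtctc
window of AADAC: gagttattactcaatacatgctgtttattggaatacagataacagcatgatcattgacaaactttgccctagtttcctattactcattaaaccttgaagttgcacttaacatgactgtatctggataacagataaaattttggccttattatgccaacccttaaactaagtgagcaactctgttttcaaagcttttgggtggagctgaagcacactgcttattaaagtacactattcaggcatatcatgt
window of AADAT: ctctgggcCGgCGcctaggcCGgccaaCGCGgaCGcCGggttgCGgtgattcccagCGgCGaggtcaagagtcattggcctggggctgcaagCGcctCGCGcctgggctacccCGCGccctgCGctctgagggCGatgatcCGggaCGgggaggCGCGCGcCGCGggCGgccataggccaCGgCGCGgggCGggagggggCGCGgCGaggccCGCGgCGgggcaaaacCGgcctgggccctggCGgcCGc

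The BAAT window held 1 CG dinucleotide at 35.2% G+C, and the AADAC window held 0 at 35.6% G+C. The AADAT window held 38 CG dinucleotides at 78.8% G+C. Across all 35116 windows of this length the median was 11 CG dinucleotides and 58% G+C. Windows with fewer CG dinucleotides made up 6.06% of the total for BAAT and 96.7% for AADAT. A second start site listed for BAAT also had 1 CG dinucleotide. The 2 further start sites of AADAT, not shown, had 8 and 18, at 41.6% and 61.6% G+C. These counts describe the letters only, and 3 windows say nothing of a relation with the change in expression.

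In control BAAT was the most abundant of the 4 per length of transcript, and its loss was of the same size in both knock-downs. BAAT stood at 17.1, 18.3 and 14.5 CPM in the control libraries, at 7.95, 8.30 and 5.24 CPM in N_28, and at 8.37, 7.19 and 5.74 CPM in N_30. Each control library lay above each knock-down library, and the libraries of the knock-down groups overlapped. Library 3 was the lowest of its group in all 3 groups. The means were 16.6 ± 1.93 CPM in control, 7.16 ± 1.67 in N_28 and 7.10 ± 1.31 in N_30 (SD, n = 3), so that 43.0% and 42.7% of the control level remained. On the log2 scale these are changes of -1.22 (SE 0.17, 95% interval -1.59 to -0.86) and -1.24 (SE 0.17, interval -1.60 to -0.87). BAAT ranked 151st from the lowest of 15019 fold changes in N_28 and 23rd in N_30, ranks that its selection on these values favours. The N_30 group differed from N_28 by -0.01 log2 units, with an interval from -0.40 to 0.38, which leaves room for a difference of that size in either direction. The 2 knock-downs share the same 3 control libraries, so the similarity of their changes rests in part on those libraries.

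NNMT moved in opposite directions. It stood at 3.28, 4.29 and 4.13 CPM in control, at 1.78, 1.21 and 1.40 CPM in N_28, and at 6.92, 7.80 and 6.19 CPM in N_30. The 3 groups did not overlap: every N_30 library lay above every control library, and every control library above every N_28 library. Means were 3.90 ± 0.545, 1.46 ± 0.292 and 6.97 ± 0.806 CPM (SD, n = 3), which puts N_28 at 37.5% and N_30 at 179% of control. The log2 changes were -1.40 in N_28 (SE 0.19, interval -1.82 to -0.99) and 0.84 in N_30 (SE 0.16, interval 0.49 to 1.18). N_30 exceeded N_28 by 2.24 log2 units (interval 1.84 to 2.64). That was the 50th highest of 15019 fold changes in that contrast, a rank that the selection of NNMT on these values favours. NNMT rested on 67 to 92 counts per control library, 22 to 37 in N_28 and 115 to 155 in N_30. The spread between N_28 libraries, a coefficient of variation of 20.0%, was close to the 18.2% that counting alone gives at that depth.

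AADAC was low in all libraries and lowest in N_28. The control libraries stood at 1.56, 2.96 and 3.45 CPM, the N_28 libraries at 0.722, 0.550 and 1.05 CPM, and the N_30 libraries at 1.38, 1.61 and 1.16 CPM. Control library 1 lay below N_30 library 2, so control and N_30 overlapped, whereas all N_28 libraries were below all others. Means were 2.66 ± 0.980, 0.773 ± 0.253 and 1.38 ± 0.226 CPM (SD, n = 3), which is 29.1% of control in N_28 and 52.0% in N_30. The log2 changes were -1.75 (SE 0.32, interval -2.45 to -1.06) and -0.95 (SE 0.30, interval -1.59 to -0.31). The control libraries held 32, 58 and 77 counts and varied by 36.8%, against 13.4% from counting alone, so the control level of AADAC is the least certain of the 4. N_28 libraries held only 10 to 24 counts.

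AADAT differed least between groups. It stood at 4.94, 5.21 and 4.98 CPM in control, at 4.48, 3.90 and 4.37 CPM in N_28, and at 4.94, 5.58 and 4.63 CPM in N_30. The N_28 libraries lay below those of both other groups, and control and N_30 overlapped. Means were 5.04 ± 0.148, 4.25 ± 0.306 and 5.05 ± 0.487 CPM (SD, n = 3), or 84.3% and 100.1% of control. The log2 changes of -0.24 in N_28 (interval -0.53 to 0.04) and 0.00 in N_30 (interval -0.28 to 0.28) both had intervals that include 0.

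**Figure D1:**
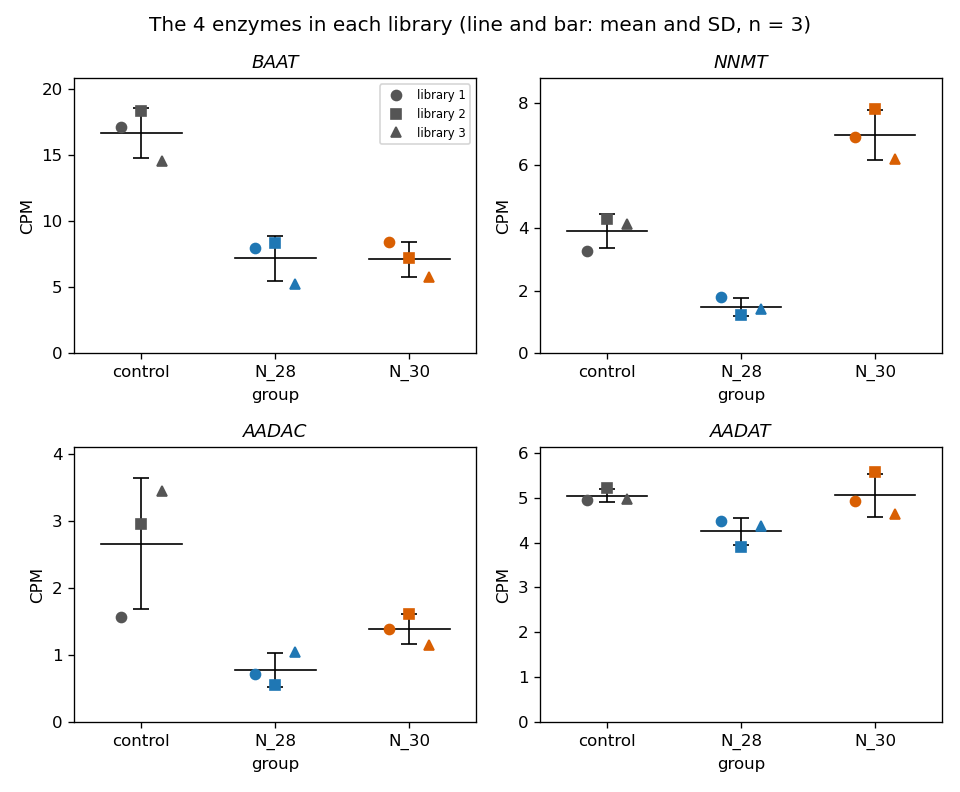
Level of BAAT, NNMT, AADAC and AADAT in each library (vertical axis, CPM, linear from 0) by group (horizontal axis), with the mean and SD of 3 libraries as a line and bar and symbols for library number. BAAT is lower in N_28 and N_30 alike, NNMT is lower in N_28 and higher in N_30, AADAC is lowest in N_28, and AADAT stays near 4 to 5.6 CPM in all groups.

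All 4 enzymes thus had every N_28 library below every control library, and BAAT was the only 1 of the 4 for which the same held in N_30. The share of all tested genes separated in this way was not counted, so nothing is read from these counts. AADAT was so separated in N_28 although the interval of its log2 change there ran from -0.53 to 0.04. For reference, edgeR's adjusted p was under 0.05 for 10.2% of all tested genes in N_28, with 5.75% lower and 4.49% higher than control. In N_30 the share was 0.866%, with 0.406% lower and 0.459% higher. Between N_30 and N_28 it was 18.3%, with 9.38% higher and 8.96% lower in N_30. These contrasts chose the members, so nothing is read from the members' changes against these backgrounds.

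Per length of transcript the order of levels differed between groups. In control, BAAT stood at 4.91 ± 0.568 RPKM (CPM divided by exon length in kilobases, SD, n = 3), above AADAT at 1.69 ± 0.0495, AADAC at 1.60 ± 0.587 and NNMT at 1.34 ± 0.187. The last 3 lay within 1 SD of AADAC of each other. Among the 14918 tested genes with a known exon length, BAAT was at the percentile 54.2 and the others at 28.8 to 33.0. In N_28 BAAT (2.11 RPKM) was followed by AADAT (1.43), NNMT (0.501) and AADAC (0.464). In N_30 NNMT (2.39 RPKM) came above BAAT (2.10), AADAT (1.69) and AADAC (0.830).

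The genes around these enzymes were read from 7 lists of pathway genes, which hold 205 genes, 124 of them tested. In N_28 13 of the 124 passed the threshold, 6 higher and 7 lower, which is 10.5% against the background of 10.2%. In N_30 2 of 124 passed, 1 in each direction, or 1.61% against 0.866%. The median log2 change over the 124 genes was -0.01 in N_28 and 0.00 in N_30, as it was near 0 over all tested genes. In N_28 the pathway genes thus passed about as often as genes in general. Without N_28 library 2 the N_28 count was 5, without control library 3 it was 6, and without control library 1 or N_28 library 1 it was 8. In N_30 the count was 1 without any of control library 2, control library 3, N_30 library 1 and N_30 library 2. With the library number as a block, a pairing that the labels do not give, the N_30 count was 6, against a background of 2.82%. KYNU, HSD3B7, CYP2E1 and NNT were added.

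Of 41 genes of bile acid synthesis, conjugation and transport, the setting of BAAT, only 20 were expressed enough to be tested. In N_28 1 of the 20 rose and 3 fell, 20% against the background of 10.2%, and in N_30 none passed the edgeR threshold. CYP27A1, the sterol 27-hydroxylase that opens the alternative route of bile acid synthesis, rose from 33.4 ± 1.61 to 42.4 ± 5.22 CPM in N_28 (log2 change 0.34, SE 0.09, edgeR adjusted p = 0.0241). Its N_28 libraries, at 45.1, 45.7 and 36.4 CPM, all lay above the control libraries at 31.8 to 35.0 CPM, but the call was lost without control library 2 or 3 or N_28 library 1 or 2. CSAD, which makes the taurine precursor hypotaurine from cysteine sulfinate and so supplies a substrate of BAAT, fell from 4.50 ± 0.198 to 3.25 ± 0.113 CPM (-0.47, SE 0.14, edgeR adjusted p = 0.0446). That call was lost in 12 of 14 alternative analyses, the omission of each of the 9 libraries among them. PEX5, the receptor that carries proteins with a peroxisomal targeting signal, fell by 0.20 on the log2 scale (edgeR adjusted p = 0.0313), and ABCC4, an export pump of the basolateral membrane, by 0.21 (edgeR adjusted p = 0.0460). Each of these last calls was lost in 7 of 15 alternatives, among them without control library 1 or 3 or any N_28 library, and for ABCC4 also without N_30 library 1 or 2. SLC27A5, the bile acid-CoA ligase that acts just before BAAT, stood at 19.0 ± 1.68 CPM in control, 20.5 ± 0.890 in N_28 and 18.4 ± 1.41 in N_30, with overlapping libraries. CYP7A1, the rate-limiting enzyme of the classic route, had too few reads to be tested.

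BAAT shares its fold with acyl-CoA thioesterases, and some of these and the glycine acyltransferases form a second list of 15 genes, 8 of them tested. ACOT9, a mitochondrial thioesterase, was the only one to pass in N_28, where it rose from 92.3 ± 5.09 to 110 ± 3.50 CPM (log2 change 0.25, edgeR adjusted p = 0.0207), and none of the 8 passed in N_30. That is 12.5% of the list against 10.2%. The ACOT9 call was lost without control library 1 or 3 or N_28 library 1 or 2. ACOT1 had log2 values of -0.03 and -0.22 and ACOT2 of -0.02 and -0.10 in N_28 and N_30, and none passed. Reads of ACOT1 and ACOT2 may be shared, since these are near-identical copies.

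In nicotinamide and NAD metabolism, the setting of NNMT, 26 of 29 genes were tested. In N_28 1 rose and 2 fell, 11.5% against the background of 10.2%. In N_30 1 fell, 3.85% against 0.866%. QPRT, which makes nicotinic acid mononucleotide from quinolinate in the synthesis of NAD from tryptophan, stood at 114, 107 and 103 CPM in control, at 62.6, 68.5 and 65.8 CPM in N_28, and at 108, 99.8 and 104 CPM in N_30. Its N_28 libraries lay far below the rest, with a fall of 0.72 on the log2 scale (SE 0.06, edgeR adjusted p = 1.05e-05), while the N_30 value was -0.05 (edgeR adjusted p = 0.814). NMNAT2, which joins nicotinamide mononucleotide to an adenylate to give NAD, fell from 8.64 ± 1.94 to 4.89 ± 0.533 CPM in N_28 (-0.82, SE 0.17, edgeR adjusted p = 0.00671) and stood at 9.31 ± 1.36 CPM in N_30. NT5E, the surface 5′-nucleotidase CD73, rose from 113 ± 4.39 to 172 ± 9.63 CPM in N_28 (0.61, SE 0.06, edgeR adjusted p = 2.79e-05) and stood at 102 ± 4.57 CPM in N_30. All 3 calls held in each of 15 alternatives.

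AOX1, the aldehyde oxidase that oxidises the product of NNMT, N1-methylnicotinamide, was the only gene of the list to pass in N_30. It stood at 11.4, 14.4 and 13.9 CPM in control, at 17.7, 14.4 and 15.8 CPM in N_28, and at 8.0, 8.50 and 8.82 CPM in N_30. All N_30 libraries lay below all others, with a fall of 0.64 on the log2 scale (SE 0.12, edgeR adjusted p = 0.0166). In N_28 the AOX1 value was 0.28 (edgeR adjusted p = 0.134), and N_30 was lower than N_28 by a log2 change of -0.92 (edgeR adjusted p = 8.69e-05). NNMT and AOX1 thus differed in opposite directions between the knock-downs. The AOX1 call in N_30 was lost without control library 2 or 3 or N_30 library 1 or 2. NAMPT, which returns nicotinamide to the NAD pool and competes with NNMT for it, stood at 83.3 ± 3.97, 92.5 ± 5.36 and 91.7 ± 1.95 CPM, and neither difference passed (0.15 and 0.14 log2 units).

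**Figure D2:**
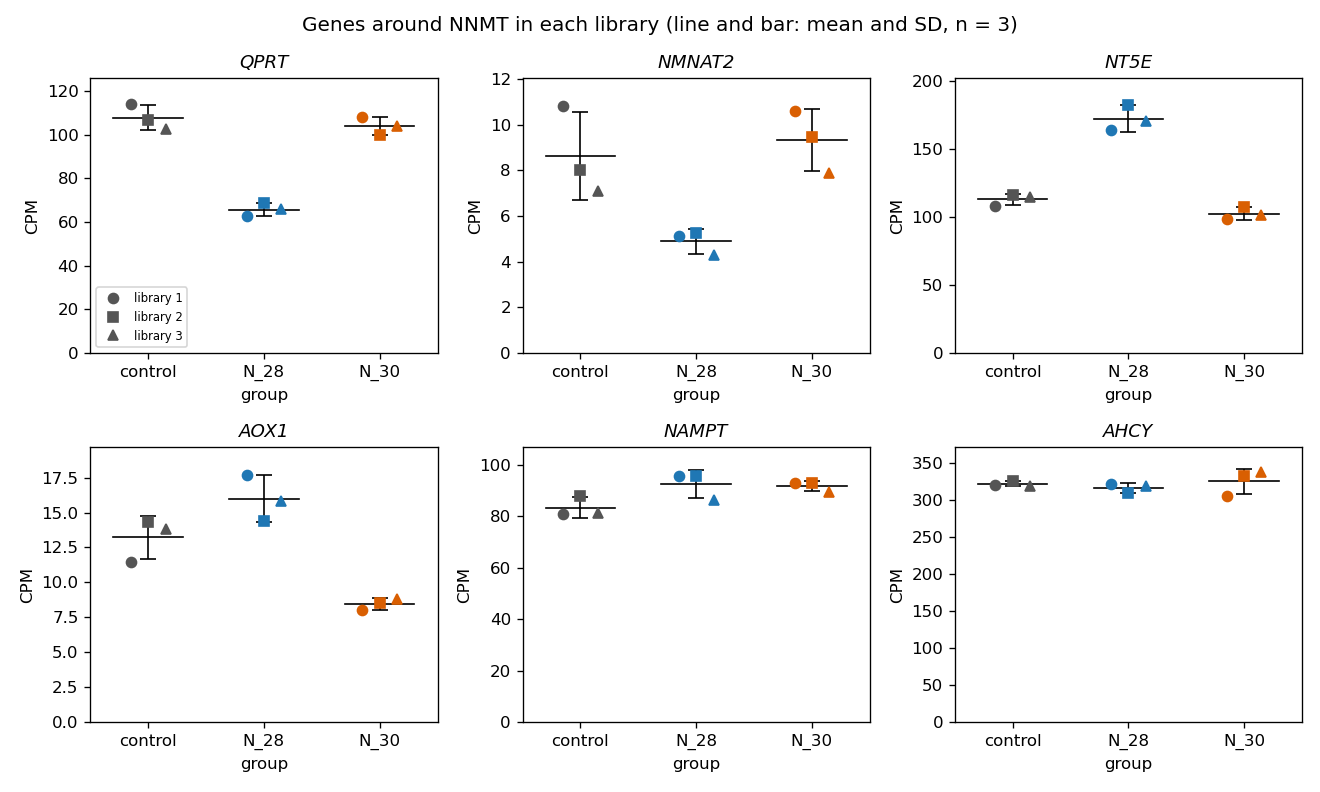
Level of 6 genes of nicotinamide and NAD metabolism or of the methionine cycle in each library (vertical axis, CPM, linear from 0), by group, with the mean and SD of 3 libraries. QPRT and NMNAT2 are low in N_28, NT5E is high in N_28, AOX1 is low in N_30, and the libraries of NAMPT and AHCY lie close together in all groups.

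Of 27 genes of the methionine cycle and small-molecule methyltransferases, which make or use the methyl donor of NNMT, 21 were tested. In N_28 1 fell, 4.76% against the background of 10.2%, and none passed in N_30. AHCY, which clears the S-adenosylhomocysteine that NNMT leaves, had log2 values of -0.02 and 0.01 in N_28 and N_30, and MAT2A, which makes S-adenosylmethionine, of -0.08 and 0.07. None of these 4 values passed. The intervals of AHCY ran from -0.14 to 0.09 and from -0.10 to 0.13.

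Of 32 esterases and genes of neutral lipid turnover, the setting of AADAC, 20 were tested. In N_28 1 rose and 1 fell, 10% against the background of 10.2%, and none passed in N_30. NCEH1, a cholesterol ester hydrolase of the same family as AADAC, rose from 139 ± 15.3 to 182 ± 11.1 CPM in N_28 (log2 change 0.39, SE 0.09, edgeR adjusted p = 0.0105) and stood at 146 ± 14.6 CPM in N_30. NCEH1 thus changed opposite to AADAC in N_28. Without N_28 library 2 its adjusted p by edgeR was 0.0544. Per length of transcript NCEH1 in control, at 28.8 RPKM, was far above AADAC at 1.60. PNPLA3, a lipid droplet hydrolase, fell from 5.86 ± 0.926 to 3.90 ± 0.474 CPM in N_28 (-0.59, SE 0.15, edgeR adjusted p = 0.0252), a call lost without control library 1 or 3 or N_28 library 2 or 3. CES2, a carboxylesterase of drug hydrolysis, had log2 values of -0.03 and 0.03, with intervals of -0.17 to 0.12 and -0.12 to 0.17. CES1, its hepatic relative, had a mean of 0.114 CPM in control and was not tested.

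In lysine and tryptophan breakdown, the setting of AADAT, 14 of 20 genes were tested and none passed in either knock-down against control. KYAT1 and KYAT3, the other kynurenine aminotransferases, had log2 values of -0.20 and 0.02 in N_28 and of -0.12 and 0.03 in N_30. Between N_30 and N_28 3 of the 14 were higher and 1 lower, 28.6% against the background of 18.3%. KYNU, kynureninase, was higher by 1.03 log2 units (edgeR adjusted p = 0.0111) and KMO, kynurenine 3-monooxygenase, by 1.42 (edgeR adjusted p = 0.0178). Both take kynurenine toward the quinolinate that QPRT uses, while AADAT takes it to kynurenic acid. The KYNU call was lost without N_30 library 2 and the KMO call without N_28 library 1 or 2 or N_30 library 1 or 2. With the library number as a block KYNU also passed in N_30 against control (0.80 log2 units, edgeR adjusted p = 0.0193).

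**Figure D3:**
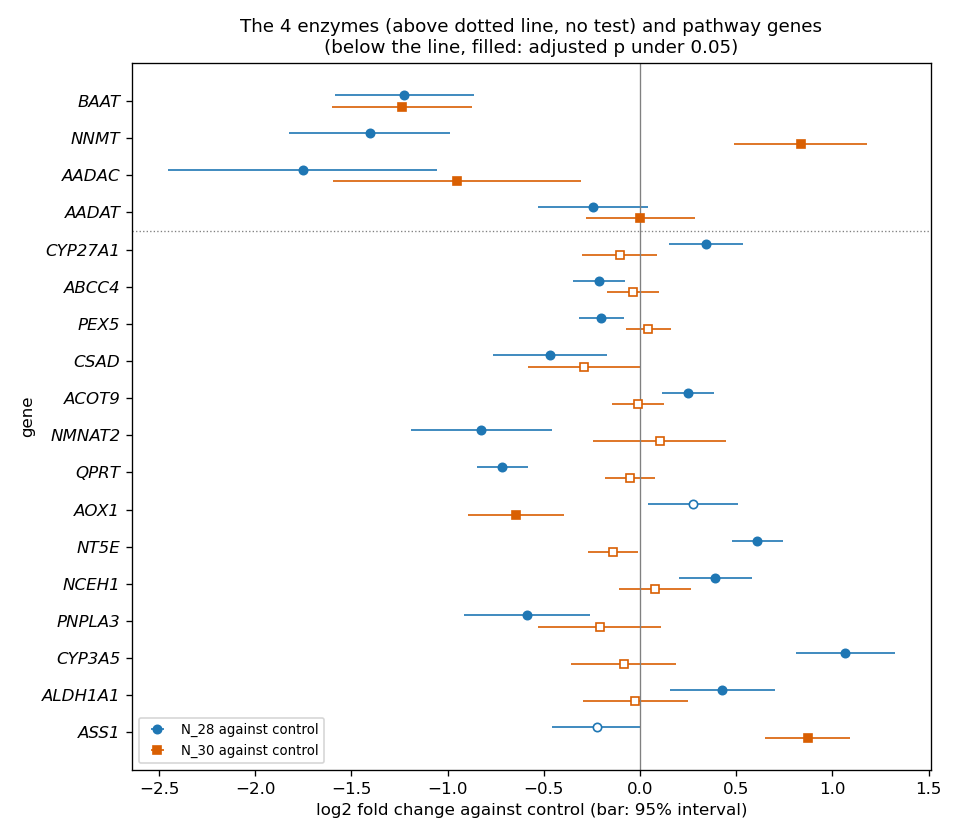
Log2 fold change against control with its 95% interval (horizontal axis) for the 4 enzymes, above the dotted line and without a test, and for 14 tested genes of the 7 lists that passed in either knock-down, with filled symbols where edgeR's adjusted p was under 0.05. BAAT has overlapping values for N_28 (blue circles) and N_30 (orange squares), NNMT lies on both sides of 0, and among the listed genes AOX1 and ASS1 pass in N_30 and the other 12 in N_28.

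Among 41 further hepatic enzymes of detoxification and intermediary metabolism 15 were tested. In N_28 2 rose and none fell, 13.3% against the background of 10.2%, and in N_30 1 rose, 6.67% against 0.866%. CYP3A5, a drug-oxidising cytochrome P450, rose from 8.98 ± 1.35 to 18.8 ± 1.13 CPM in N_28 (log2 change 1.07, SE 0.12, edgeR adjusted p = 6.75e-05) and stood at 8.48 ± 0.985 CPM in N_30. ALDH1A1, a retinal dehydrogenase, rose by 0.43 log2 units in N_28 (edgeR adjusted p = 0.0487), a call lost in 6 of 15 alternatives, among them without control library 2 or 3 or any N_28 library. ASS1, the urea cycle enzyme that makes argininosuccinate, rose in N_30 from 9.14 ± 0.751 to 16.7 ± 1.39 CPM (0.87, SE 0.10, edgeR adjusted p = 0.000925). ASS1 shared with NNMT a rise in N_30, where its libraries stood at 18.2, 16.5 and 15.5 CPM, all above the control libraries at 8.34 to 9.83 CPM.

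Transcription factors known to drive hepatic genes were a further list, with 13 of 15 tested. In N_28 2 rose and 2 fell, 30.8% against the background of 10.2%, and none passed in N_30. The part of these factors in the changes of the enzymes was not tested. FOXA2, a pioneer factor of liver genes, rose by 0.41 log2 units in N_28 (65.9 ± 3.18 to 87.4 ± 4.61 CPM, edgeR adjusted p = 0.00176) and ONECUT1 by 0.92 (3.31 ± 0.365 to 6.31 ± 0.784 CPM, edgeR adjusted p = 0.00211). PROX1, a homeobox factor of liver development, fell by 1.45 (1.39 ± 0.325 to 0.507 ± 0.162 CPM, edgeR adjusted p = 0.0224). NR5A2, a nuclear receptor of bile acid genes, fell by 0.38 (28.6 ± 4.25 to 21.9 ± 1.41 CPM, edgeR adjusted p = 0.0331). The calls of PROX1 and NR5A2 were each lost without 4 of the 9 libraries in turn: control 1, control 2 and N_28 library 3 for both, N_28 library 1 for PROX1 and N_28 library 2 for NR5A2. CEBPA, a further factor of hepatocyte genes, had log2 values of 0.01 in N_28 and -0.34 in N_30, and neither passed.

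The hepatocyte markers as a sum were lower in N_28. Their summed level was 18.9 to 21.8 CPM in control, 8.79 to 10.8 CPM in N_28 and 20.8 to 31.3 CPM in N_30. Of the 6 tested markers 4 (SERPINA1, FGA, FGG and TF) were lower in N_28, against a background of 5.75% lower genes. FGB and AMBP did not pass there, with log2 values of -0.27 and 0.06, and none of the 6 passed in N_30. NNMT and AADAC were lowest in N_28, where the marker sum was lowest, and BAAT was low in both knock-downs. The part of the marker sum in the changes of these enzymes was not tested. The summed levels of other cell types' markers were 774 to 940, 691 to 750 and 811 to 941 CPM for 5 cholangiocyte markers, and 2157 to 2259, 2035 to 2132 and 2170 to 2290 CPM for 9 fibroblast and stellate cell markers, in control, N_28 and N_30. The fibroblast markers DCN, LUM and THY1 and the cholangiocyte markers KRT19 and EPCAM were at or near 0. On the same lists SOX9 stood at 177 to 256 CPM and COL1A1 at 35.4 to 174 CPM, and COL1A1 was higher in N_30 than in N_28 by 1.31 log2 units (edgeR adjusted p = 0.00163). The 4 endothelial markers summed to 1.22 to 1.57, 2.14 to 2.70 and 1.38 to 1.99 CPM, and 4 leukocyte markers to at most 1.22 CPM. Of these lists KRT7 was lower and PECAM1 higher in N_28, and none passed in N_30.

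Genes beside the 4 enzymes on their chromosomes were read next, taking the 5 nearest tested genes on either side, with before and after read by coordinate. Around BAAT, 1 of 10 neighbours passed in N_28 and none in N_30, with median log2 changes of 0.02 and -0.02. MRPL50, which lies 4.11 kb after BAAT, had log2 values of -0.21 and -0.12, and neither value passed. PGAP4, 89.7 kb after it, fell by 0.53 in N_28 (edgeR adjusted p = 0.00140) with -0.01 in N_30, so no neighbour of BAAT passed in both groups. Around NNMT, BUD13, 2435 kb away, was the only neighbour to pass in N_28 (0.28, edgeR adjusted p = 0.0429, lost without control library 1 or 3, N_28 library 1 or 3, or N_30 library 1 or 2), and none passed in N_30. The nearest, C11orf71, RBM7 and REXO2, had values of -0.01, 0.01 and 0.01 in N_28 and of 0.18, 0.04 and 0.15 in N_30.

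Among the 10 neighbours of AADAC, 1 rose and 2 fell in N_28, against backgrounds of 4.49% higher and 5.75% lower, with 1 of the falls on either side. The nearest, ENSG00000250271, ends 5.79 kb before AADAC and held 3 to 20 counts per library. It did not pass against control, with log2 values of -0.68 in N_28 and 0.95 in N_30. Its level in N_30 was above that in N_28 by 1.63 (edgeR adjusted p = 0.00699). SUCNR1, the receptor for extracellular succinate, begins 45.2 kb after AADAC at chr3:151873643-151884619. It stood at 11.2, 8.79 and 7.67 CPM in control, at 0.433, 0.934 and 0.218 CPM in N_28, and at 9.09, 7.55 and 3.56 CPM in N_30. All N_28 libraries lay below all others, and the level fell by 4.17 on the log2 scale (SE 0.41, edgeR adjusted p = 2.79e-05), while control and N_30 overlapped (-0.47, edgeR adjusted p = 0.575). AADACP1, a pseudogene of the AADAC family at chr3:151770428-151784894, ends 29.1 kb before AADAC. Its control libraries stood at 2.35, 3.12 and 3.45 CPM, the N_28 libraries at 1.06, 1.59 and 1.27 CPM, and the N_30 libraries at 3.43, 2.72 and 2.14 CPM. AADACP1 fell by 1.19 in N_28 (SE 0.24, edgeR adjusted p = 0.00623), with -0.12 in N_30. The longest transcripts of AADAC and AADACP1 were 82.0% identical over 639 aligned columns, with a longest identical run of 50 bases, so the assignment of short reads between them is uncertain. SUCNR1 has no such likeness to AADAC, with a longest identical run of 13 bases.

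Farther away on chromosome 3, RAP2B rose by 0.70 in N_28 (edgeR adjusted p = 3.95e-05) at 1334 kb, and MBNL1, at 415 kb, had values of 0.03 and -0.07. None of the 10 neighbours of AADAC passed in N_30, where AADAC itself stood at 52.0% of control. Around AADAT none of 10 neighbours passed against control, and the nearest gene after it with enough reads was 3240 kb away.

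**Figure D4:**
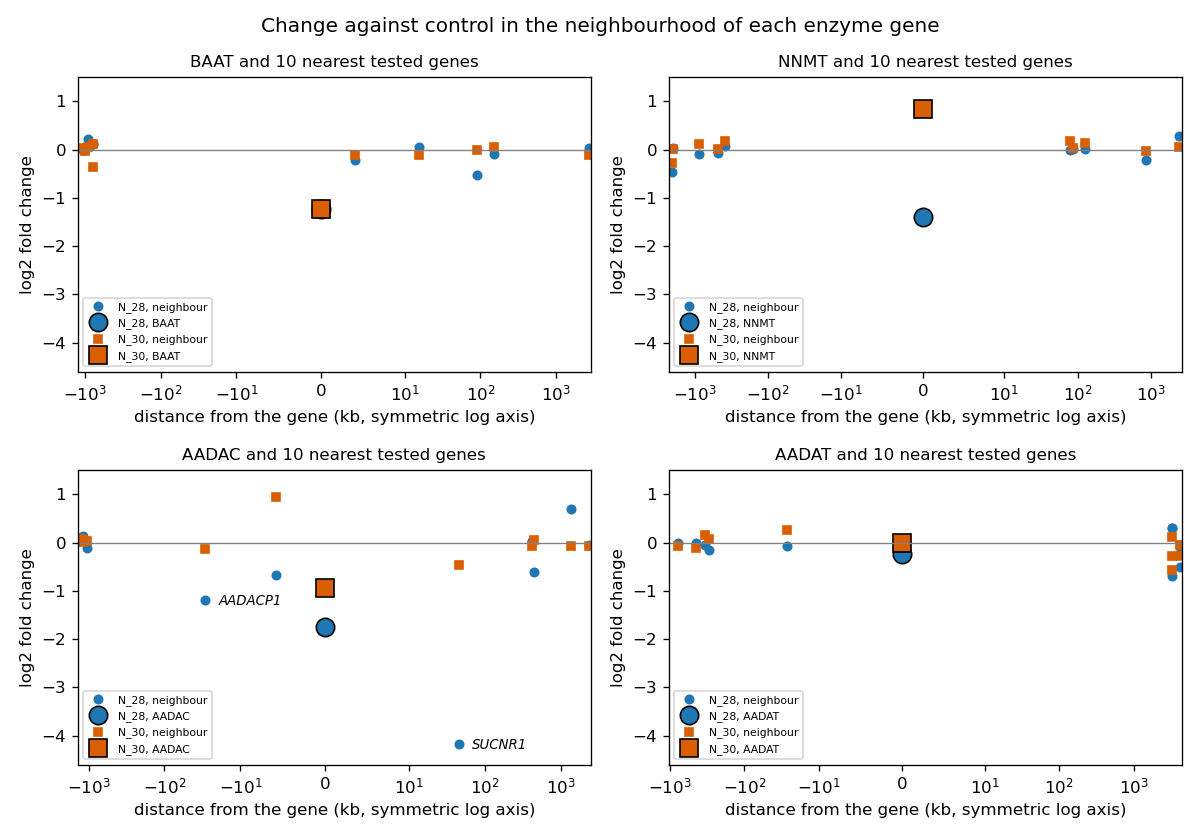
Log2 fold change against control (vertical axis) of each enzyme gene (large symbols at 0) and its 10 nearest tested genes, by distance in kb along the chromosome (horizontal axis, symmetric log scale), for N_28 (blue circles) and N_30 (orange squares). Neighbours of BAAT, NNMT and AADAT lie near 0 or within 0.7 of it, and beside AADAC the genes SUCNR1 and AADACP1 are low in N_28.

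The genes whose level across the 9 libraries was most like each enzyme's, by Pearson's correlation of log2 CPM over genes that average 5 CPM or more, are given as a description, since all points share the same 3 groups. For BAAT they were TMOD2 (0.951), TSPAN5 (0.940) and RASSF2 (0.937). Their values were smaller: TMOD2 had log2 values of -0.41 and -0.30 in N_28 and N_30, TSPAN5 of -0.22 and -0.20, and RASSF2 of -0.34 and -0.26, against -1.22 and -1.24 for BAAT. For NNMT they were GGH (0.988), RIMKLB (0.988) and HPF1 (0.986). RIMKLB fell by 0.94 in N_28 and rose by 0.46 in N_30, both past edgeR's threshold, although the N_30 call was lost without any 1 of the control or N_30 libraries. RIMKLB was picked for its likeness to NNMT in these same libraries, so these calls are a description. GGH and HPF1 did not pass, with values of -0.18 and -0.15 in N_28. For AADAC they were DNAJC13 (0.951), ABI3BP (0.946) and KPNA1 (0.929), and for AADAT SH3KBP1 (0.971), RIPK4 (0.956) and SLC43A1 (0.951). Among the 4 enzymes themselves the correlation over 9 libraries was 0.83 for NNMT and AADAT, 0.76 for AADAC and AADAT, 0.66 for BAAT and AADAC, and 0.14 for BAAT and NNMT.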

How the data were processed

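RNA of 9 libraries labelled Huh7 was sequenced. The authors deposited raw counts of reads, 1 row per human Ensembl gene. Against these identifiers, a mouse build, mm8, stands in the submitters' processing notes, and an aligner, counter, annotation or strand setting is not given in these sources. Groups come from the sample titles. A table of gene names gave 56434 symbols and GENCODE 29 gave 434 more, and 3580 rows stayed unnamed. Coordinates and exon lengths are GENCODE 29 on GRCh38, and promoter sequences are RefSeq's.

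Of 60448 rows 30527 had no read. edgeR 4.0.16 under R 4.3.3 ran its quasi-likelihood test over all 9 libraries on counts with TMM scaling, a term for each group, and a filter with a minimum count of 10. A call among the 15019 tested genes needed an adjusted p (Benjamini-Hochberg) under 0.05. Standard errors and 95% intervals come from this fit, whose common biological coefficient of variation was 0.0783, and the procedure was tested on simulated data. Chi-square per gene between libraries of 1 group was 3.57 to 12.4, so none was treated as a copy.

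Deviations from the group mean had correlations of 0.124, 0.169 and 0.304 between control and N_30 libraries of equal number. With N_28 the correlations ran from -0.0589 to 0.234, the highest for library 3 of N_28 and N_30. Libraries of unequal number were not compared, so these values cannot show whether equal numbers mark pairs.

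The members and gene lists were chosen with earlier results of these data known. Named were, per list and comparison with control, up to 4 called genes of lowest adjusted p and up to 2 well-known genes that did not pass, plus, for each member, the 3 most alike genes that average 5 CPM or more and 5 tested neighbours per side. Genes outside this rule, such as KYNU, KMO and the named markers, were chosen after their values were seen. Some genes of the lists enter the counts but are not reported here. Alternatives were DESeq2 1.42.0, its size factors, other filters, a prior count of 2, a replicate block, only the groups compared, and each library left out.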

Additional observations from a re-analysis of the deposited data

Results flagged for a closer look

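Of 185 genes that were listed, neighbouring or most alike, 20 had changes against control that differed between the knock-downs by the test of N_30 against N_28 itself (edgeR's quasi-likelihood test, adjusted p under 0.05) and passed in at least 1 knock-down. The share of all tested genes that meet both conditions was not counted, so nothing is read from the 20. All values are log2 differences of N_30 against N_28. In bile acid genes and thioesterases, CYP27A1 was lower by a difference of -0.45 and ACOT9 of -0.26, and PEX5 was higher by 0.24. Around NNMT, NMNAT2 (0.93) and QPRT (0.66) were higher in N_30, the direction in which NNMT differed, and AOX1 (-0.92) and NT5E (-0.75) were lower. Among esterases NCEH1 was lower (-0.31), a call lost in 4 of 15 alternatives. Of other hepatic enzymes ASS1 was higher (1.10), and CYP3A5 (-1.15) and ALDH1A1 (-0.45) were lower. The ALDH1A1 call was lost in 4 of 15 alternatives. Of the transcription factors PROX1 (1.41) and NR5A2 (0.45) were higher, and ONECUT1 (-1.18) and FOXA2 (-0.43) lower. The PROX1 call was lost in 2 of 14 alternatives. Beside the enzymes on their chromosomes, SUCNR1 (3.70), AADACP1 (1.07) and PGAP4 (0.52) were higher and RAP2B (-0.78) lower. RIMKLB was higher by 1.40, but it was picked for its likeness to NNMT in these same libraries, so its difference is a description. OPA1 itself differed by 0.21 between these groups, and the part of that in these differences was not tested.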

How the results depend on the processing

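The log2 changes of BAAT, NNMT and AADAC against control kept their direction in all 15 or 16 alternatives. For BAAT and NNMT, and for AADAC in N_28, the groups did not overlap, so leaving out a single library could hardly reverse the direction. BAAT ranged from -1.34 to -1.03 in N_28 and from -1.37 to -1.10 in N_30, NNMT from -1.57 to -1.29 and from 0.73 to 0.92, and AADAC from -2.05 to -1.51 and from -1.22 to -0.71. AADAT in N_30 kept its sign in 10 of 15, between -0.08 and 0.06, and BAAT between the knock-downs in 13 of 16, between -0.21 and 0.12. A filter on a mean of 5 CPM gave no value for NNMT, AADAC or AADAT.

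The 130 genes called in N_30 became 267 with DESeq2, 523 without a filter and 424 with the replicate block, and the 2 pathway genes became 6 without a filter and 6 with the block. The block raised the 13 pathway genes in N_28 to 25 and its called genes to 2301, although by the labels the libraries of different groups share only a number. The 2301 called genes, against 1538 without the block, and the block's 2 counts of N_30 against N_28 stayed within 1.5 times. The cause of the rise with the block was not tested. Leaving out each library in turn gave 967 to 1712 called genes and 5 to 13 pathway genes in N_28, 58 to 180 and 1 to 3 in N_30, and 1850 to 2919 and 18 to 27 between the knock-downs. The called genes were 967 in N_28 without its library 1, and in N_30 78 without control library 3, 71 without N_30 library 1 and 58 without N_30 library 2. Depth limits AADAC most, at 10 to 24 counts in N_28 libraries.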

Other observations

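Between the knock-downs 27 of the 124 pathway genes passed edgeR's threshold, 12 higher and 15 lower in N_30, which is 21.8% against the background of 18.3%. Several did not pass against control. CDO1, the cysteine dioxygenase that begins taurine synthesis, was at 0.919 ± 0.353 CPM in control, 2.06 ± 0.0845 in N_28 and 0.592 ± 0.361 in N_30 (SD, n = 3), and N_30 differed from N_28 by -1.85 log2 units (edgeR adjusted p = 0.00552). BCHE, the plasma butyrylcholinesterase, was at 0.691 ± 0.122, 1.44 ± 0.367 and 0.423 ± 0.213 CPM, a difference of -1.81 (edgeR adjusted p = 0.00329). HSD3B7, which acts early in bile acid synthesis, and ABCC2, the canalicular export pump, were higher in N_30 by 0.58 (edgeR adjusted p = 0.00927) and 0.35 (edgeR adjusted p = 0.00521). NNT, the mitochondrial transhydrogenase, differed by -0.37 (edgeR adjusted p = 0.00109). GCDH, which acts after AADAT in lysine breakdown, differed by 0.35 (edgeR adjusted p = 0.00928), a call lost without N_28 library 2.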
